A study of Mus musculus with 12 samples.

Results

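The NR4A genes encode a family of 3 orphan nuclear receptors: Nr4a1 (Nur77), Nr4a2 (Nurr1) and Nr4a3 (Nor1). They were taken from the arrays by name, as the probe sets that the platform annotation gives to these symbols. The family itself was picked with earlier results of these data known. That gave 10 of the 45101 probe sets, 1 for Nr4a1, 6 for Nr4a2 and 3 for Nr4a3, and 3 of the 18193 genes that have a probe set of their own. The brightest probe set of each gene, by its mean over the arrays, is called the main one. All 3 main probe sets, and 6 of the 10 probe sets, were bright enough to pass the filter on dim genes.

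RNA of mouse skeletal muscle, the tissue named by the series title, was measured on 12 Affymetrix arrays in 4 groups of 3. The groups were mice with a loss of Stat5a and Stat5b given growth hormone (KO+GH), wild-type mice given growth hormone (WT+GH), and mice with that loss (KO) and wild-type mice (WT) whose labels name no growth hormone. Stat5a and Stat5b encode the transcription factors that carry the growth hormone (GH) receptor's signal to the nucleus. A treatment label places the loss of both genes in blood cells, while the title concerns muscle. The Cre driver or other means of deletion, the strain, sex and age, and the dose and duration of GH are not given in the sources used here. Animal numbers in the titles differ for all 12 arrays, which are taken here as different animals and numbered 1 to 3 in each group only to name them.

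Values are MAS5 signals, the array software's intensity on a linear scale, with every array already brought by the authors to a trimmed mean of 500. In the muscle of the KO mice the signal of Stat5b was 15.2% of that of WT without GH and 20.2% with GH, and that of Stat5a was 40.6% and 40.2%. Summed signals of 10 skeletal muscle fibre markers, such as Acta1 and Ckm, lay between 393000 and 587000 on all arrays, while 8 lymphocyte markers summed to between 190 and 349. The sums were 9430 to 18800 for 10 macrophage markers and 335 to 3070 for 8 neutrophil markers. Sums over different probe sets do not give the share of a cell type. Arrays with GH differed from those without in measures of the array controls: the spiked poly-A control transcripts were 3.16-fold higher (487 to 533 against 151 to 173), and the actin 3 prime over 5 prime ratio was 0.887 to 1.01 against 0.805 to 0.864. Both differed by a 2-sided exact permutation test (p = 0.00216, adjusted p = 0.00289 over 4 measures). No source used here names a batch, and whatever handling set the GH arrays apart cannot be told apart from GH in the comparisons of GH with no GH. The spike-in levels of KO+GH and WT+GH overlapped (490 to 533 and 487 to 507).

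NR4A receptors are called orphans because they act without a known classical hormone: the cavity where other nuclear receptors hold a ligand is filled by side chains, so their activity is thought to follow largely how much of the protein is made. All 3 bind a short DNA element, the NBRE, as single molecules, and Nr4a1 and Nr4a2 also pair with retinoid X receptors. They are immediate early genes, switched on within a short time by cAMP, calcium, growth factors or stress, and in skeletal muscle by beta-adrenergic signals and exercise, where Nr4a1 and Nr4a3 are known for raising genes of glucose and fat use.

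Sequence just before the genes' starts is shown for the elements of the cAMP route. The 250 bases before the start of each gene are printed from RefSeq's promoter table (mouse build GRCm38.p6), 5′ to 3′ on the gene's strand, because each holds several copies of the CRE half-site TGACG, the core letters bound by the cAMP-responsive factor CREB. Capitals mark each half-site on either strand, so that CGTCA is the same letters read on the other strand.
Nr4a1: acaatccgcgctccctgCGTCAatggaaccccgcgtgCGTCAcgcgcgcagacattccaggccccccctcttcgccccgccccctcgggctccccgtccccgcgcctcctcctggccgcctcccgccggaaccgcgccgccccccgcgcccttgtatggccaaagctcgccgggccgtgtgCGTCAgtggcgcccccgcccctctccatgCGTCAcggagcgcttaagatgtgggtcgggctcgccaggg
Nr4a2: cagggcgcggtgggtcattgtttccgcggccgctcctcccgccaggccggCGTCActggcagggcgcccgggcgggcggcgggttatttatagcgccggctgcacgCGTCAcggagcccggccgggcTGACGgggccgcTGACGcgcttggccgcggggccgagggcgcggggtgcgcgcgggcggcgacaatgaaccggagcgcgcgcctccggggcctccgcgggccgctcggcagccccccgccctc
Nr4a3: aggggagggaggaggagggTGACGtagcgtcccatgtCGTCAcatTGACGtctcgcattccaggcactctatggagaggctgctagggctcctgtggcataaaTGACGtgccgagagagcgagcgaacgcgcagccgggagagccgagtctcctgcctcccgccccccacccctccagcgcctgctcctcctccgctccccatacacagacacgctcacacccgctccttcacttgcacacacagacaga

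The Nr4a1 window lies at chr15:101266596-101266845 on the plus strand and 74.4% of its bases are G or C. The Nr4a2 window lies at chr2:57124004-57124253 on the minus strand (80.0% G or C), and the Nr4a3 window at chr4:48045055-48045304 on the plus strand (63.6% G or C). RefSeq's gene spans of Nr4a1 (chr15:101253902-101274795) and Nr4a3 (chr4:48045078-48086447) begin before the end of these windows, so RefSeq also has starts for them elsewhere, and that of Nr4a2 is chr2:57106830-57124003. Each window held 4 half-sites, which begin 233, 213, 69 and 40 bases before the start in Nr4a1, 200, 144, 123 and 111 bases before it in Nr4a2, and 231, 213, 205 and 147 bases before it in Nr4a3. Of the 32851 windows of this length in the table, 17.8% held at least 1 half-site and 0.137% held 4 or more. Among the 9178 windows with at least 60% G or C, the shares were 27.1% and 0.37%. The full CRE (TGACGTCA, which contains the half-site), the STAT5 element TTCNNNGAA, the NBRE (AAAGGTCA) and the CArG box of serum response factor had no match in the 3 windows, on either strand. They occur in 1.55%, 7.02%, 1.34% and 1.47% of all windows. A MEF2 box was found in Nr4a2 alone of the 3, 167 bases before the start (2.92% of all windows hold one).

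Nr4a1 was lower in KO muscle with GH than in WT muscle with GH and in KO muscle without it. Its signals were 5943, 5784 and 6015 in KO+GH, 12912, 9986 and 10641 in WT+GH, 7390.3, 9668 and 10304 in KO, and 8202, 6999 and 10836 in WT. The 3 KO+GH arrays were the lowest of the 12 and lay close together, with a coefficient of variation of 2.0% against 13.7% in WT+GH. KO+GH was also the tightest group over all genes tested. Its median SD on the log2 scale was 0.0997, against 0.135 in WT+GH, 0.166 in KO and 0.177 in WT. Nr4a1 was bright, with a mean signal above that of 98.0% of probe sets. Mean signals were 5914 ± 118 in KO+GH, 11180 ± 1535 in WT+GH, 9121 ± 1532 in KO and 8679 ± 1962 in WT (SD, n = 3 each). In ascending order the groups therefore ran KO+GH, WT, KO and WT+GH, and the WT arrays overlapped those of KO and of WT+GH.

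Under GH the Nr4a1 mean in KO was 52.9% of that in WT, with no overlap between the groups, as in 30.0% of the 12654 genes tested. The log2 fold change of KO+GH over WT+GH was -0.91 ± 0.15 (SE, limma, adjusted p = 0.00168), or 1.88-fold lower, and 99.2% of genes had a higher value. In this comparison 4.53% of genes passed the threshold of an adjusted p under 0.05 and 2.11% fell. Without GH, Nr4a1 in KO was 105% of its WT level and did not pass the threshold (0.08 ± 0.15, interval -0.24 to 0.40, adjusted p = 0.899), where 1.45% of genes passed. The groups KO and WT overlapped, and the sign of that difference changed with the setting. The genotype difference was larger with GH than without it by -0.99 ± 0.21 on the log2 scale (interaction, limma, adjusted p = 0.0379), a test that 0.933% of genes passed and 0.308% passed in the lower direction.

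The interaction rests on a narrow margin. It was past the threshold in 10 of 24 other settings and in 3 of the 12 fits that left out 1 array (without KO 1, WT 3 or WT+GH 2), while its value stayed between -1.22 and -0.85. The adjusted p without the other arrays was 0.0921 (KO 2), 0.0847 (KO 3), 0.105 (KO+GH 1), 0.115 (KO+GH 2), 0.0963 (KO+GH 3), 0.0828 (WT 1), 0.0688 (WT 2), 0.115 (WT+GH 1) and 0.0803 (WT+GH 3). The difference between KO+GH and WT+GH passed in all 25 other settings, at -1.17 to -0.80 with adjusted p between 4.49e-05 and 0.0277.

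Between arrays with and without GH, Nr4a1 was lower with GH in KO and had no call in WT. In KO it was 64.8% of its level without GH with no overlap between the groups (-0.61 ± 0.15, limma, adjusted p = 0.00858), in a comparison where 24.3% of genes passed the threshold, 15.4% fell and 44.4% had groups that did not overlap. In WT it was 129% of its level without GH with overlapping groups (0.38 ± 0.15, adjusted p = 0.0910), where 19.1% of genes passed. Without the array WT 3 this comparison in WT gave 0.55 ± 0.14 and passed (adjusted p = 0.0166). With the actin ratio as a covariate the fall in KO was -1.11 ± 0.37 and did not pass (limma, adjusted p = 0.232). The ratio did not overlap between arrays with and without GH, so this fit cannot tell the ratio from GH. Within the GH arrays that ratio was 0.962 to 1.01 in KO+GH and 0.887 to 0.932 in WT+GH (exact permutation p = 0.1, the smallest that 3 against 3 can give). The Gapdh ratio separated the same groups the other way, at 0.795 to 0.830 in KO+GH and 0.842 to 0.860 in WT+GH (exact permutation p = 0.1). KO+GH against WT+GH gave -1.17 ± 0.23 for Nr4a1 with the actin covariate (limma, adjusted p = 0.0277). The part of RNA quality in these differences was not tested further.

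**Figure D1:**
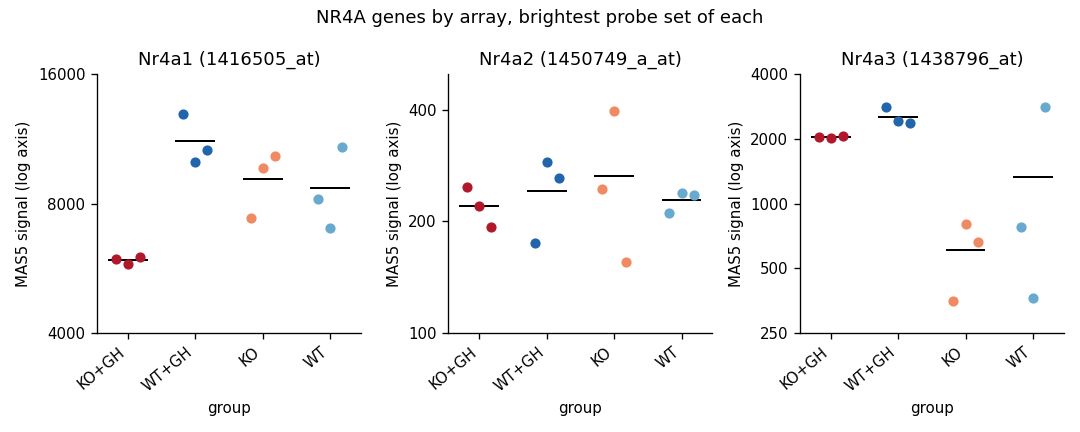
MAS5 signal of the main probe set of each NR4A gene on each of the 12 arrays (points, log axes) with the arithmetic mean of each group (lines), for KO+GH, WT+GH, KO and WT. The 3 KO+GH arrays of Nr4a1 sit between 5784 and 6015, below all others, and the array WT 3 of Nr4a3 sits at 2834, among the GH arrays.

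Nr4a3 was high on all 6 GH arrays and on 1 array without GH. Its signals were 2053, 2019 and 2071 in KO+GH, 2832, 2416 and 2383 in WT+GH, 349.5, 801 and 661 in KO, and 773, 365 and 2834 in WT. The array WT 3 stood apart from the others of its group and was the highest of all 12. Mean signals were 2048 ± 26.6 in KO+GH, 2544 ± 250.01 in WT+GH, 604 ± 231 in KO and 1324 ± 1323 in WT (SD, n = 3 each). The order from low to high was KO, WT, KO+GH and WT+GH, and the range of the WT arrays overlapped that of each other group. The probe set was brighter than 89.9% of probe sets.

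With GH the Nr4a3 mean in KO was 339% of its level without GH, and the groups did not overlap, as in 44.4% of the 12654 genes tested. The log2 fold change was 1.80 ± 0.62 and missed the threshold (limma, adjusted p = 0.0639). Without WT 3 the same fold change had a standard error of 0.29 and passed (adjusted p = 0.0016), as it did without WT 2 (SE 0.43, adjusted p = 0.0159) and with only the KO+GH and KO arrays fitted (SE 0.25, adjusted p = 0.00144, where 26.9% of genes passed). With the actin ratio as a covariate it was -0.34 ± 1.47 (limma, adjusted p = 0.95). That ratio did not overlap between arrays with and without GH, so this fit cannot tell the ratio from GH. In WT the GH mean was 192% of the one without GH and the groups overlapped through WT 3 (1.41 ± 0.62, adjusted p = 0.149). Leaving WT 3 out gave 2.20 ± 0.33 (adjusted p = 0.00166), in a fit where 14.4% of genes passed for GH in WT and 24.1% for GH in KO.

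No genotype difference in Nr4a3 passed the test over all 12 arrays. With GH the KO mean was 80.5% of the WT mean, and the groups did not overlap, as in 30.0% of all genes tested. The log2 fold change of -0.31 ± 0.62 did not pass (limma, adjusted p = 0.865). With only the KO+GH and WT+GH arrays in the fit the standard error was 0.07 and the difference passed (adjusted p = 0.0167), where 10.3% of genes passed. Without GH the KO mean was 45.6% of the WT mean with overlapping groups (-0.69 ± 0.62, adjusted p = 0.739), and without WT 3 the value was 0.10 ± 0.33 (adjusted p = 0.946). The interaction of genotype and GH was 0.38 ± 0.87 (interval -1.59 to 2.36, adjusted p = 0.917) and -0.40 ± 0.44 without WT 3 (adjusted p = 0.807).

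Nr4a2 had no call in any of the 5 comparisons at its main probe set. Signals there were 247, 219.98 and 193 in KO+GH, 175, 290.3 and 261 in WT+GH, 245, 397 and 155 in KO, and 210.2, 239 and 236 in WT. All groups overlapped, and the array KO 2 was the highest. Group means were 220.1 ± 27.3 in KO+GH, 242 ± 60.2 in WT+GH, 266 ± 122 in KO and 229 ± 16.0 in WT (SD, n = 3 each), so no pair of neighbouring groups differed beyond the spread of its arrays. The log2 fold change was -0.10 ± 0.25 for KO+GH against WT+GH (interval -0.63 to 0.43, adjusted p = 0.888) and 0.11 ± 0.25 for KO against WT (interval -0.42 to 0.64, adjusted p = 0.915). For GH it was 0.05 ± 0.25 in WT (adjusted p = 0.912) and -0.17 ± 0.25 in KO (adjusted p = 0.678), and the interaction was -0.22 ± 0.35 (adjusted p = 0.885).

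**Figure D2:**
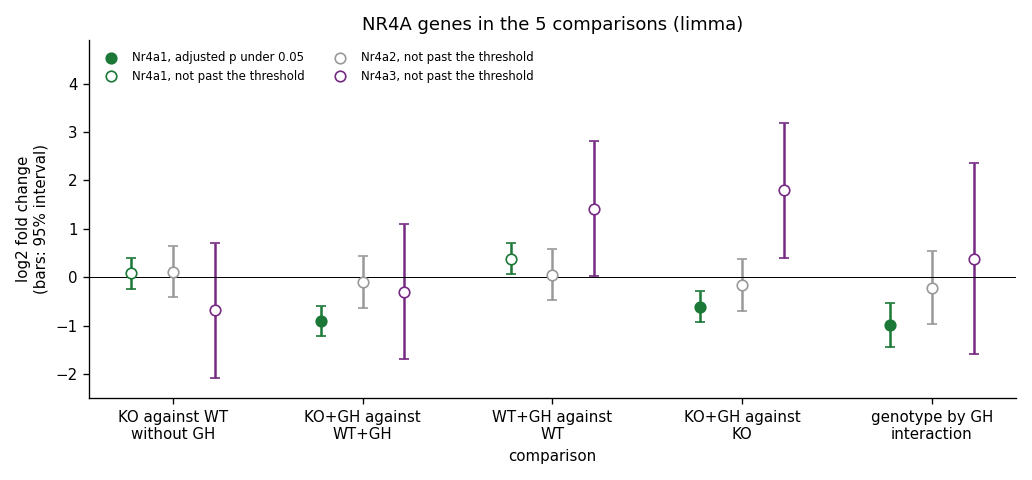
Log2 fold changes of Nr4a1, Nr4a2 and Nr4a3 in the 5 comparisons, from the fit over all 12 arrays, with 95% confidence intervals as bars. Filled points passed an adjusted p of 0.05: these are Nr4a1 for KO+GH against WT+GH (-0.91), for KO+GH against KO (-0.61) and in the interaction (-0.99).

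The 6 probe sets of Nr4a2 disagreed with each other. The array KO 2 was the highest of the 12 in 4 of them (708, 397, 359 and 676 at 1447863_s_at, 1450749_a_at, 1450750_a_at and 1455034_at). At 1455034_at the signals were 46.1, 21.6 and 30.3 in KO+GH against 299, 676 and 70.0 in KO, with no overlap, and 38.2, 53.1 and 55.4 in WT+GH against 118, 62.0 and 135 in WT. In a fit over all 34945 probe sets with 1 gene each, GH in KO gave -2.29 ± 0.50 there (limma, adjusted p = 0.00562), where 14.1% of probe sets passed. The same comparison at 1447863_s_at gave -1.25 ± 0.51 (limma, adjusted p = 0.131) and at 1450750_a_at -0.92 ± 0.32 (adjusted p = 0.0673). There the KO+GH means were 33.1% and 45.9% of those in KO, with no overlap at either. The main probe set gave -0.17 ± 0.25 with overlapping groups. At the dim 1433423_at the value was 0.76 ± 0.37 (limma, adjusted p = 0.206), with no overlap and KO+GH higher. For GH in KO, 44.4% of the 12654 genes tested had groups that did not overlap. The dim probe set 1433422_at gave 1.12 ± 0.33 for GH in WT (adjusted p = 0.0383), from 59.9 to 94.6 in WT+GH and 11.3 to 39.6 in WT, where 11.0% of probe sets passed. Of the 10 NR4A probe sets, 1 passed for KO+GH against WT+GH in that fit (Nr4a1, adjusted p = 0.0023, where 2.38% passed), 1 for GH in WT and 2 for GH in KO (Nr4a1 and 1455034_at). In the interaction Nr4a1 missed the threshold there (-0.99 ± 0.21, adjusted p = 0.0527).

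The other probe sets of Nr4a3, 1421080_at and 1421079_at, were dim. Their mean signals of 36.2 and 34.3 were above those of only 30.7% and 29.5% of probe sets, against 1630 at the main one. For GH in KO they gave 0.01 ± 0.27 (adjusted p = 0.985) and -0.77 ± 0.45 (adjusted p = 0.310), so the high GH arrays of Nr4a3 were seen at the main probe set alone. Nr4a1 has 1 probe set, and its values have no second one beside them.

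**Figure D3:**
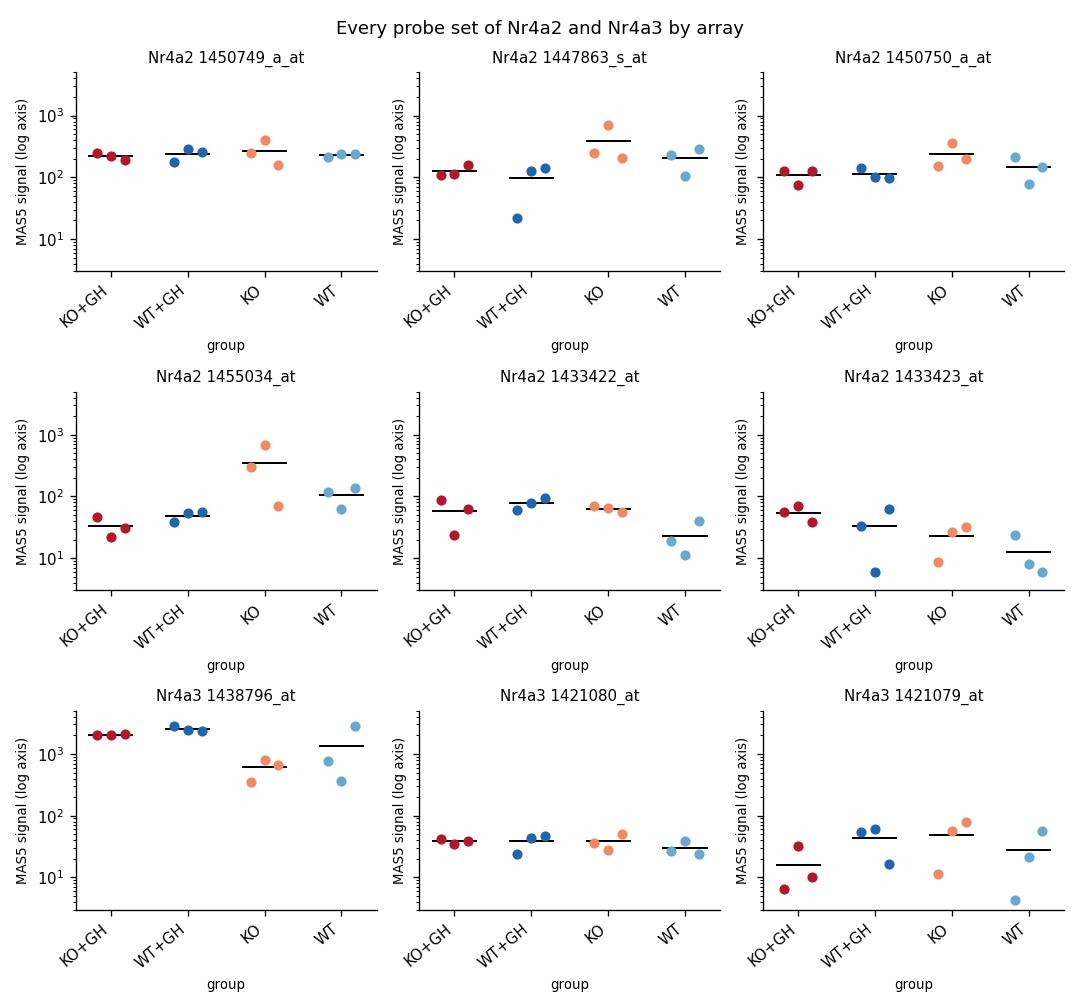
MAS5 signal on each array (points, 1 log axis shared by all panels) with group means (lines) for the 6 probe sets of Nr4a2 and the 3 of Nr4a3, in the groups KO+GH, WT+GH, KO and WT. The dim probe sets of Nr4a3 stay below 80 on every array, while the main one reaches 2834.

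Across the 12 arrays the main probe sets of the 3 genes did not run together: Pearson's r was 0.216 between Nr4a1 and Nr4a3, -0.0614 between Nr4a2 and Nr4a3 and -0.00452 between Nr4a1 and Nr4a2. These values describe arrays that share groups and, for GH, a spike-in level. In KO+GH the lowest Nr4a1 signals of the series thus stood beside high Nr4a3 signals on the same arrays.

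The other immediate early genes give the setting of these changes, and most of those that changed ran opposite to Nr4a1. Of 32 listed, 31 were bright enough to test. In KO+GH against WT+GH, 11 rose and 2 fell (median log2 fold change 0.37, against -0.02 over all genes), where 2.42% of genes rose. Egr1, a zinc finger factor, had signals of 10500, 9690 and 10800 in KO+GH against 853, 971 and 978 in WT+GH (3.43 ± 0.14, limma, adjusted p = 1.5e-09). Dusp5, a phosphatase of ERK, gave 3.83 ± 0.25 (adjusted p = 1.54e-07), Junb of the AP-1 complex 2.01 ± 0.13 (adjusted p = 1.54e-07) and the antiproliferative Btg2 2.28 ± 0.24 (adjusted p = 6.91e-05). Nr4a1, on the same arrays, was at 52.9% of its WT+GH level. The 2 that fell, named after their values were seen, were the stress genes Gadd45b (-0.54 ± 0.13, adjusted p = 0.0305) and Gadd45g (-0.71 ± 0.18, adjusted p = 0.0327); leaving out 1 array at a time gave 10 to 12 that rose and 0 to 3 that fell, with 0 falls without KO+GH 1, KO+GH 2, KO+GH 3, WT+GH 1 or WT+GH 3.

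Many of these genes rose with GH in both genotypes. With GH, 14 of the 31 rose and 2 fell in WT, and 20 rose and 1 fell in KO (2 fell without KO 2 or WT 1 and with median centring). Of all genes, 7.33% rose and 11.8% fell in WT, and 8.93% rose and 15.4% fell in KO. In KO, Egr1 gave 4.31 ± 0.14 (limma, adjusted p = 3.24e-11), Dusp5 4.11 ± 0.25 (adjusted p = 3.39e-08), Junb 1.92 ± 0.13 (adjusted p = 9.68e-08) and Zfp36, which hastens decay of cytokine mRNAs, 1.74 ± 0.12 (adjusted p = 1.06e-07). In the interaction 5 were higher and 0 lower (Egr1, Dusp5, Klf6, Btg2 and Junb), where Nr4a1 was lower, beside 0.624% of all genes higher and 0.308% lower. Without GH, 3 were higher and 2 lower in KO than in WT (higher Junb, Dusp1 and Fos, lower Egr1 and Gadd45g), where 0.774% of genes rose and 0.680% fell, and Nr4a1 had no call. The 2 lower calls were 0 without KO 2 or KO 3, and 1 with each array centred on its median and without any 1 of the others except KO 1 and WT 3; the higher ones were 2 without KO 2 and 4 without KO 1.

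**Figure D4:**
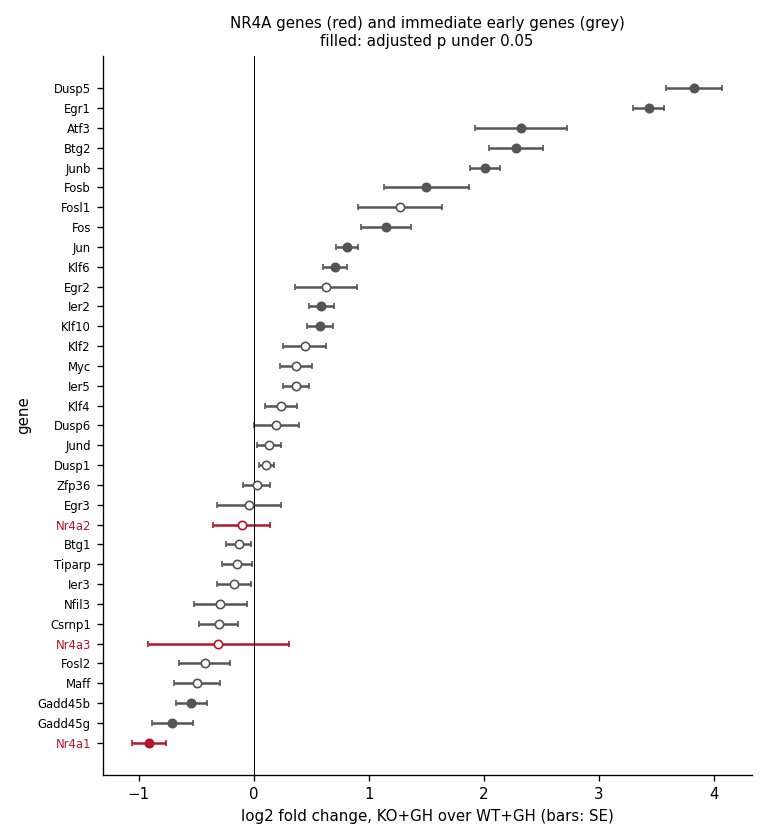
Log2 fold change of KO+GH over WT+GH (points, bars are standard errors) for the 31 immediate early genes tested and the 3 NR4A genes, sorted by value, with filled points past an adjusted p of 0.05. Nr4a1 (-0.91) lies at the lower end and Egr1 (3.43) and Dusp5 (3.83) at the upper end.

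Genes of the signals that are known to drive the NR4A genes were read next, beside the 4.53% of all genes that passed in KO+GH against WT+GH and the 1.45% in KO against WT. Of 13 listed genes of the cAMP and CREB route, 10 were tested and limma called 0 in KO+GH against WT+GH (1 at an unadjusted p under 0.05) and 0 in KO against WT (0 unadjusted). With GH, the protein kinase A subunit Prkacb fell in WT (-0.29 ± 0.09, limma, adjusted p = 0.0302) and in KO (-0.40 ± 0.09, adjusted p = 0.00393), and the CREB relative Crem fell in KO (-0.47 ± 0.13, adjusted p = 0.0201), where 11.8% of genes fell in WT and 15.4% in KO. The list had 0 falls in WT without WT 1, WT+GH 2 or WT+GH 3, and 1 fall in KO without KO 1, KO 2 (where 1 gene also rose), KO+GH 1 or KO+GH 2. Of 14 genes of the calcium route (MEF2 factors, class IIa histone deacetylases, calcineurin and serum response factor), the kinase subunit Camk2b alone rose in KO+GH against WT+GH (0.47 ± 0.12, limma, adjusted p = 0.0273). None fell there, and 6 had an unadjusted p under 0.05. With GH, 2 of these genes rose and 1 fell in WT, and 3 rose and 1 fell in KO, beside 7.33% and 8.93% of all genes that rose. The calcineurin regulator Rcan1 rose in WT (0.66 ± 0.12, limma, adjusted p = 0.00153) and KO (0.99 ± 0.12, adjusted p = 3.8e-05), and the deacetylase Hdac9 fell in WT (-1.25 ± 0.26, adjusted p = 0.00336) and KO (-1.63 ± 0.26, adjusted p = 0.000366). Leaving out 1 array gave 1 to 2 rises and 1 to 2 falls in WT, and 1 to 3 of each in KO. Camk2b did not pass when any 1 of KO+GH 1, KO+GH 2, KO+GH 3, WT+GH 1 or WT+GH 2 was left out, where the count was 0. In that comparison the list had 2 rises and 1 fall without WT 1, and 2 rises and 0 falls without WT 2.

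A list of 12 genes that cAMP induces shares Crem with the cAMP and CREB list and Fos with the immediate early genes. Of these 12, 2 rose and 2 fell in KO+GH against WT+GH, where 2.42% of all genes rose and 2.11% fell. The phosphodiesterase Pde4b (0.70 ± 0.09, limma, adjusted p = 0.000217) and Fos (1.15 ± 0.22, adjusted p = 0.00502) rose. The coactivator Ppargc1a had signals of 578, 634 and 584 in KO+GH against 955, 1240 and 1190 in WT+GH and fell (-0.88 ± 0.18, adjusted p = 0.00969), as did the G protein regulator Rgs2 (-0.87 ± 0.22, adjusted p = 0.0354). The falls were 1 without KO+GH 1, KO+GH 2, KO+GH 3, WT+GH 1 or WT+GH 3 and with each array centred on its median, and 0 without WT+GH 2.

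Of the retinoid X receptors, the partners of Nr4a1 and Nr4a2, all 3 were tested, and limma called 0 in KO+GH against WT+GH and in KO against WT (0 at an unadjusted p under 0.05 in each). Rxrb fell with GH in WT (-0.38 ± 0.12, limma, adjusted p = 0.0382), a call lost without WT 1, WT 3, KO+GH 3, WT+GH 2 or WT+GH 3 and under quantile normalization. Rxra lay between 2080 and 2650 and Rxrg between 1580 and 2370 on the 12 arrays.

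Muscle genes listed as tied to NR4A receptors are given beside the 2.42% of all genes that rose and the 2.11% that fell in KO+GH against WT+GH. Of 16 glucose genes, 1 rose and 0 fell in KO+GH against WT+GH: Fbp2, the muscle fructose bisphosphatase, at 1840, 1820 and 1850 against 941, 862 and 853 (1.03 ± 0.17, limma, adjusted p = 0.0021), which was also the 1 gene past the threshold in the interaction (1.41 ± 0.25, adjusted p = 0.00924), where the count was 2 without WT 2. The list's median was -0.14 in KO+GH against WT+GH. Of 16 lipid and oxidative genes, 14 were tested, 3 fell and 1 rose. Ucp3, a mitochondrial carrier of muscle, had 2730, 2840 and 2800 in KO+GH against 6640, 6070 and 6150 in WT+GH (-1.16 ± 0.22, adjusted p = 0.00714). Ppargc1a (above) and Prkag3, an AMP kinase subunit (-0.46 ± 0.12, adjusted p = 0.0355), also fell, and the coactivator Ppargc1b rose (0.60 ± 0.11, adjusted p = 0.00262); without WT+GH 2, 1 fell and 1 rose, and 2 rose without KO 1, KO 3 or WT 2 and with median centring. The list's median was -0.19. Without GH, limma called 0 genes of either list between KO and WT (3 of each at an unadjusted p under 0.05), and Nr4a1 had no call there either.

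Other nuclear receptors that fell in KO+GH were also counted. Of 15 orphan and adopted receptors tested of 19 listed, 2 fell and 0 rose in KO+GH against WT+GH: the clock repressor Nr1d1 (562, 756 and 625 against 991, 1320 and 947, -0.72 ± 0.13, limma, adjusted p = 0.00411) and Nr2c1 (-0.49 ± 0.13, adjusted p = 0.0336), where 2.11% of all genes fell. The count was 1 without KO+GH 1, KO+GH 3, WT+GH 1, WT+GH 2 or WT+GH 3 and with each array centred on its median. Nr1d1 was also the 1 gene of the list lower in the interaction (-0.88 ± 0.19, adjusted p = 0.0379), a call that was lost when any 1 of 9 arrays was left out, and kept without KO 3, KO+GH 2 or WT+GH 3. Of 11 ligand-bound receptors tested of 14, the fatty acid sensor Ppara fell (-0.98 ± 0.17, adjusted p = 0.00267) and the retinoic acid receptor Rarg rose (0.77 ± 0.13, adjusted p = 0.00225), and 2 fell without KO 1, WT 1 or WT 3.

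Genes listed as STAT5 targets, whichever way STAT5 acts on them, were also read. Of 10 tested, Socs2 (-2.29 ± 0.16, limma, adjusted p = 1.74e-06) and Cish (-3.02 ± 0.46, adjusted p = 0.0134), both feedback inhibitors of cytokine signalling, fell in KO against WT without GH. In that comparison 0.680% of all genes fell and the NR4A genes had no call. With GH, Socs2 (-1.19 ± 0.16, limma, adjusted p = 0.000283) and Bcl6 (-0.79 ± 0.19, adjusted p = 0.0266) were lower in KO and Socs3 was higher (2.22 ± 0.30, adjusted p = 0.00108), where 2.11% of all genes fell and 2.42% rose. Cish did not pass there, at 3180, 3590 and 3470 in KO+GH against 9270, 11000 and 10700 in WT+GH. Its groups did not overlap, as in 30.0% of all genes tested. Without any 1 KO+GH array, WT+GH 2 or WT+GH 3, 1 gene rather than 2 was lower, while 4 were lower without WT 1 and 3 without WT 3.

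The genes whose pattern was most like each NR4A gene were taken as the 5 with the highest Pearson correlation over the 12 arrays, a description across arrays that share groups. For Nr4a1 they were Hcfc1 (r = 0.929), Pum3 (0.888), Fbxo32 (0.876), Nod1 (0.876) and Pogk (0.875). Fbxo32, the atrophy-linked ubiquitin ligase atrogin-1, had 2500, 2480 and 2410 in KO+GH against 6330, 5510 and 5880 in WT+GH (-1.25 ± 0.11, limma, adjusted p = 5.05e-06), while Pogk gave -0.50 ± 0.12 (adjusted p = 0.0197). Hcfc1, Pum3 and Nod1 did not pass in that comparison (limma, adjusted p = 0.201, 0.242 and 0.304). In the interaction Fbxo32 was lower by -0.99 ± 0.16 (limma, adjusted p = 0.00445), the same size as for Nr4a1. These genes were picked for their likeness on the same arrays, so a like group pattern was built in. For Nr4a3 the 5 genes were Ncoa3 (0.944), Agfg2 (0.913), Apoa5 (0.912), Nfil3 (0.912) and Srm (0.909).

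The nuclear receptor coactivator Ncoa3 ran with Nr4a3, WT 3 included: it had 850, 785 and 802 in KO+GH, 831, 915 and 895 in WT+GH, 543, 600.0 and 656 in KO, and 621, 538 and 767 in WT, where WT 3 was again the highest without GH. The leucine zipper repressor Nfil3 was also high on WT 3 (1860, against 1290 and 942 on the other WT arrays), though KO 2 was at 1810. Nfil3 rose with GH in WT (1.23 ± 0.23, limma, adjusted p = 0.00271) and in KO (0.98 ± 0.23, adjusted p = 0.00828). WT 3 was the highest of the 6 arrays without GH in 5 of the 31 immediate early genes (16.1%), against 11.6% of all genes. Whether WT 3 was raised in immediate early genes at large was not tested. For Nr4a2 the 5 were Zfp513 (0.87), Nfatc3 (0.845), Miga1 (0.797), Nectin3 (0.79) and Rprd1a (0.789), and none of them passed a threshold in the 5 comparisons.

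**Figure D5:**
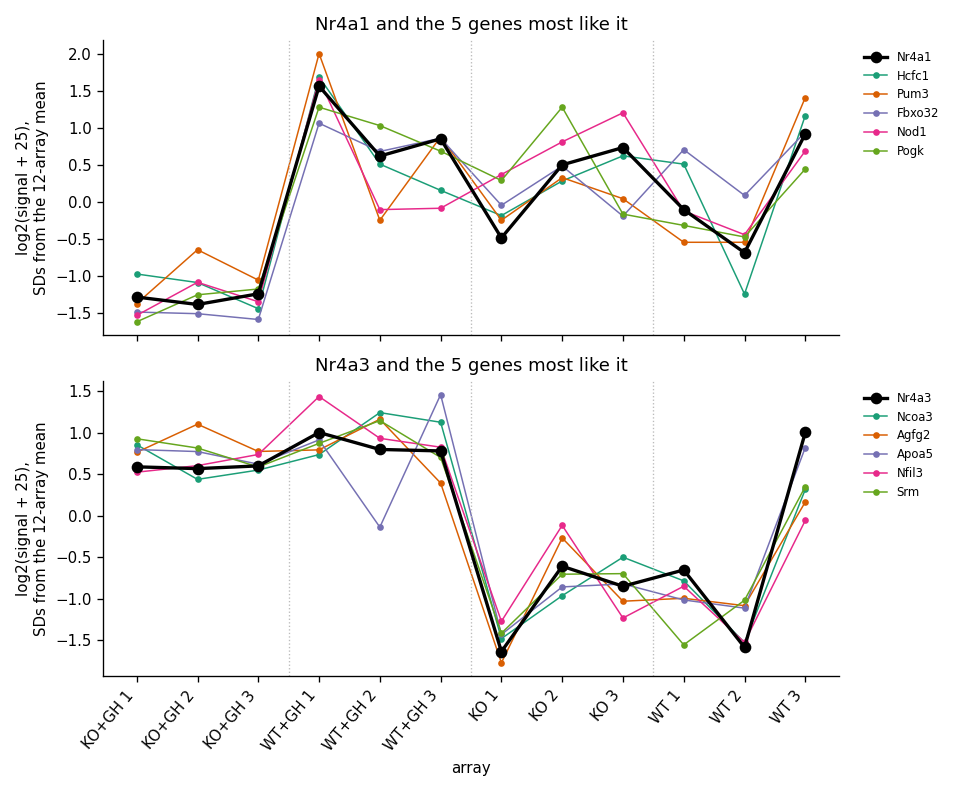
Log2(signal + 25) of Nr4a1 (upper panel) and Nr4a3 (lower panel) in black, each with the 5 genes most like it in colour, on the arrays of KO+GH, WT+GH, KO and WT, in standard deviations from the gene's own mean over the 12 arrays. All 6 genes of the upper panel are low on the KO+GH arrays, and the genes of the lower panel are high on the GH arrays and on WT 3.

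Whole muscle RNA was measured, so fewer cells of a type and less RNA per cell cannot be told apart. Beside the fall of Nr4a1 in KO+GH, neutrophil markers moved too: 8 of them summed to between 1600 and 1790 in KO+GH, 2860 and 3070 in WT+GH, 335 and 380 in KO, and 379 and 514 in WT. Of the 5 tested, S100a9 and Ngp fell in KO+GH against WT+GH, where 2.11% of all genes fell; the count was 0 without KO+GH 3 or WT+GH 3 and 1 without KO+GH 2, WT+GH 1 or WT+GH 2. Nr4a1 is also made in myeloid cells. The 10 macrophage markers summed to 9430 to 9510 in KO+GH and 9580 to 10000 in WT+GH, and limma called 0 of them in that comparison (0 at an unadjusted p under 0.05). The 10 muscle fibre markers summed to 393000 to 412000 in KO+GH and 402000 to 556000 in WT+GH, where 0 passed (2 unadjusted), and 7 of them fell and 1 rose with GH in KO, where 15.4% of all genes fell. That split depended on the scaling: with quantile normalization 3 fell and 3 rose, and 3 fell without KO 3 and 4 without KO+GH 1. Among endothelial markers 1 rose and 1 fell, and among 10 of smooth muscle and pericytes 2 rose and 0 fell in KO+GH against WT+GH, where 2.42% of all genes rose. The endothelial fall was lost with median centring and without KO 2, WT 3 or any 1 GH array, and the smooth muscle rises were 1 without KO+GH 1, KO+GH 3 or WT+GH 1 and 0 without KO+GH 2 or WT+GH 2. The sums of the adipocyte, fibroblast and Schwann cell markers, of which 0 passed in that comparison (0, 1 and 3 unadjusted), were 72500 to 77000, 81200 to 82700 and 7590 to 7860 in KO+GH and 70100 to 80500, 77800 to 90800 and 6630 to 6990 in WT+GH. The part of these cells in the Nr4a1 result was not tested.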

How the data were processed

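Per the labels, total RNA was prepared with RNeasy kits, labelled with biotin and hybridized to Affymetrix mouse arrays, and each deposited intensity is a linear signal made by the authors with MAS5 (per the submitters' processing notes; its version and settings are not given in the sources used here). The 2% trimmed mean was 500 on every array. Precision is limited by having 3 arrays in each group, and no detection calls were used.

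Values were taken as log2(signal + 25), 25 being close to the pooled 25th percentile (25.36), so folds of dim genes are understated. Of the probe sets, 64 controls, 932 with several symbols and 9160 with none were left out of the gene tests. The other 34945 name 18193 genes, 161 of which kept the annotation's symbol. The brightest probe set per gene was used, and genes whose mean exceeded a log2 value of 6.253 (the 40th percentile over probe sets) were tested, 12654 in all. Limma 3.58.1 in R 4.3.3 (statmod 1.5.0) fitted 1 mean per group over 12 arrays (8 residual degrees of freedom), with trended and robust eBayes, 2-sided p and Benjamini-Hochberg adjustment over all genes tested (threshold 0.05). "Rose" and "fell" mean past that threshold. A value after ± is a standard error for log2 fold changes and an SD for signals; percentages of a level are ratios of mean signals. P-values treat arrays as separate animals, which only the titles' animal numbers show. The fit was tested on simulated data. Sequences are RefSeq's (GRCm38.p6); all 3 genes matched by symbol.

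The genes, the lists and the tests were chosen with earlier results of these data known. Named list members are up to 4 with the smallest adjusted p past the threshold in a comparison, others where a count is at most 5 were named after their values were seen. Alternatives were other pseudocounts (1, 100), filters, scalings, probe set choices, array weights, arrays left out, an actin covariate and, added after the data were seen, leaving out WT 1 and KO 3 together.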

Additional observations from a re-analysis of the deposited data

Results flagged for a closer look

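For Nr4a1 the difference between KO and WT was not the same with GH as without it: the interaction of genotype and GH was -0.988 on the log2 scale (limma, adjusted p = 0.0379). The difference was -0.91 ± 0.15 with GH, where all 3 KO+GH arrays lay below all 3 WT+GH arrays, and 0.08 ± 0.15 without GH, where the groups overlapped. The call was lost in 14 of 24 other settings, 9 of them with 1 array left out.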

How the results depend on the processing

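No paired analysis was possible because the replicate numbers only name the arrays and the labels pair no animals. Over 25 alternatives (24 for the interaction), the fall of Nr4a1 in KO+GH against WT+GH kept its call in all. Its fall with GH in KO lost the call with the actin ratio as covariate (-1.11, limma, adjusted p = 0.232). That ratio did not overlap between arrays with and without GH, so fits with it cannot tell the ratio from GH in those comparisons. The Nr4a1 interaction missed the threshold with that covariate (-1.22, adjusted p = 0.0754), with each array centred on its median (-0.99, 0.0579), with probe sets of a gene averaged (-0.99, 0.0585), without trend and robust settings (-0.99, 0.146) and without WT 1 and KO 3 together (-0.86, 0.134), and the causes were not tested. For Nr4a3 with GH in KO, array weights gave 1.70 (adjusted p = 0.0481), no trend 1.80 (0.0428) and only KO+GH and KO 1.80 (0.00144), all past the threshold; only KO+GH and WT+GH gave -0.31 (0.0167) for that pair. The actin covariate turned Nr4a3 to -0.34 for GH in KO and -0.59 in the interaction, and the mean of all probe sets to -0.34 in the interaction and 0.0037 for KO against WT. These settings also cut uncalled Nr4a3 values: averaged probe sets gave 0.35 for GH in KO and 0.69 for GH in WT, and the actin covariate gave 0.25 for GH in WT. Nr4a1 for KO against WT turned to -0.0021 with array weights and -0.043 without WT 1 and KO 3. Nr4a2 for GH in WT turned to -0.16 with the actin covariate, -0.042 with median centring, -0.060 with averaged probe sets and -0.0038 without WT 1 and KO 3, and for KO+GH against WT+GH to 0.030 with the mean of all probe sets; none of these reversals was of a called value. The number of NR4A genes past the threshold was 1 for GH in KO and 0 with the actin covariate, 2 with array weights, 2 with no trend and 2 with only those groups; for KO+GH against WT+GH it was 1, and 2 with only those groups; for the interaction it was 1, and 0 under the 5 settings above.

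Leaving out 1 array at a time gave counts of 1 to 2 for GH in KO, 0 to 2 for GH in WT and 0 to 1 for the interaction. For Nr4a1 it gave -0.85 to -1.16 in the interaction, 0.24 to 0.55 for GH in WT and -0.062 to 0.25 for KO against WT. For Nr4a2 it gave -0.47 to 0.15 for GH in KO, -0.083 to 0.25 for GH in WT, -0.52 to 0.096 in the interaction, -0.20 to 0.41 for KO against WT and -0.30 to 0.030 for KO+GH against WT+GH. For Nr4a3 it gave 1.46 to 2.03 for GH in KO, 0.76 to 2.20 for GH in WT, -0.40 to 1.03 in the interaction and -1.34 to 0.098 for KO against WT. The calls gained were Nr4a1 for GH in WT without WT 3, Nr4a3 for GH in KO without WT 2 or WT 3 and for GH in WT without WT 3. Arrays per group (3) and the single probe set of Nr4a1 limit the precision.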
